A study of Homo sapiens with 9 samples.

Results

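The genes of chromosome 6 were followed in order of their position through 3 sister clones of a human melanoma line. Of 2824 table entries placed on chromosome 6 of GRCh38, 705 reached at least 1 CPM, a read count scaled to the library's total, in at least 3 of the 9 libraries, out of 14637 genes in the whole table that did so. These 705 members comprised 406 genes of the short arm (start below 60 Mb) and 299 of the long arm, and 616 were protein-coding. The chromosome was chosen because its genes as a whole differed between the clones in these same libraries, so its medians and the counts of its genes past a threshold are descriptions and carry no test. A member below 1 CPM in every library of a clone reached the minimum only through the other clones. Its direction was in part fixed by that rule. Just outside the CPM minimum stood AL662844.4, POLH-AS1 and AL353588.1, each at 0.993 CPM in the library that decides the rule. Just inside it stood BVES-AS1 at 1.0, OFCC1 at 1.01 and AL021807.1 at 1.01 CPM.

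The clones SC01, SC07 and SC10 were each grown from a single cell of SK-MEL-5, an established BRAF-mutated melanoma line, by limiting dilution without drug. The initial response to PLX-4720, an inhibitor of mutant BRAF, guided their choice, and no label ties a response to a clone. All 9 libraries, 3 per clone, came from untreated cells and from total RNA. Each genotype is 1 clone, and the labels do not say whether its 3 libraries came from separate cultures. The p-values below therefore cover no more than library-to-library spread, possibly technical, and clone cannot be told apart from any batch that went with it. DNA was not measured here.

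Total counts ran from 30224066 to 39454087 per library. Of 7 melanocyte markers, MITF, PMEL, MLANA, TYR, DCT and TYRP1 were present at 450 CPM or more in the mean of every clone, and SOX10 was listed at 0 counts in all 9 libraries. The summed CPM of the 7 was 10724 to 11382 in SC01, 24353 to 24855 in SC07 and 15153 to 15372 in SC10. The summed CPM of 6 fibroblast markers was 161 to 168 in SC01, 437 to 498 in SC07 and 363 to 400 in SC10, nearly all of it LUM and FBLN1. Its rise was almost all LUM, with means of 131, 462 and 350 CPM, and DCN was also higher in SC07 and SC10. FBLN1 was lower there, with 30.5, 9.59 and 28.9 CPM, and so were COL1A1, COL1A2 and COL3A1. That of 6 keratinocyte markers was 117 to 119, 83.6 to 85.7 and 98.3 to 110.1, with KRT1 at 0 counts. Most of it was PERP, itself a gene of chromosome 6, with means of 94.2, 61.9 and 77.3 CPM. KRT10 had 22.6, 20.9 and 24.8 CPM, so the lower keratinocyte sums follow PERP and are not separate from the differences below. That of 4 immune markers was 0.210 to 0.577, 2.84 to 3.79 and 0.679 to 1.10, and that of 3 endothelial markers 2.84 to 3.10, 8.43 to 10.3 and 4.78 to 5.37. The part of these markers in the differences below was not tested. Chi-square divided by its degrees of freedom was 2.47 to 10.5 for pairs of libraries of 1 clone and 55.0 to 172 for other pairs, and SC10 replicate 3 lay farther from its sisters (9.47 and 10.5) than these did from each other (2.47).

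Chromosome 6 carries on its short arm the major histocompatibility complex (MHC), which holds the antigen-presenting HLA genes, and next to it a large cluster of histone genes. The melanocyte regulators IRF4 and TFAP2A lie on the short arm, and the growth-related genes MYB, TNFAIP3 and IGF2R on the long arm. Gains of the short arm and losses of the long arm are common in melanoma, and probes for RREB1 and MYB are used to count them in biopsies.

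The promoters of a few members are shown first. They were picked because the clones differed widely at these genes or because the genes are neighbours that differed in the same direction. Some members not shown here differed more widely than some of these. RefSeq sequences on GRCh38.p14 were matched by symbol for 570 of the 705 members, and 135 had no match. Each sequence runs 5′ to 3′ on the gene's own strand, from 250 bases before the start of transcription to 50 after it. Capitals mark the letters GGGCGG on either strand (CCGCCC on the printed one), the core of a GC box. MRS2, encoding a mitochondrial magnesium channel (chr6:24402686-24402985, plus strand), ALDH5A1, encoding succinic semialdehyde dehydrogenase (chr6:24494719-24495018, plus strand), and ACOT13, encoding an acyl-CoA thioesterase (chr6:24666827-24667126, plus strand), belong to a stretch of 6 neighbours that were higher in SC07 and SC10 than in SC01. The ACOT13 window shares 277 of its 300 bases with that of TDP2, a DNA repair enzyme read in the opposite direction.
MRS2: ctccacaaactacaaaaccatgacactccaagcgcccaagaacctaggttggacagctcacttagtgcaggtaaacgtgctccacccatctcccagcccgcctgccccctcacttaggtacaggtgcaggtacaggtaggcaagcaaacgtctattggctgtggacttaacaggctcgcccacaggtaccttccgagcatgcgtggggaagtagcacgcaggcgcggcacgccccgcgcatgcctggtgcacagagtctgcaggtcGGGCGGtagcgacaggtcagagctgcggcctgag
ALDH5A1: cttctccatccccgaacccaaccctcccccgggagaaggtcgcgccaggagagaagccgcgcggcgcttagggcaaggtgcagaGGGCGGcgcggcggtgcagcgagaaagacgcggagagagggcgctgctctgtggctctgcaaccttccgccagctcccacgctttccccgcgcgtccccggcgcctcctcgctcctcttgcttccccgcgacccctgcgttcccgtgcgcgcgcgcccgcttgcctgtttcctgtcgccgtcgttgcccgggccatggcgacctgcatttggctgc
ACOT13: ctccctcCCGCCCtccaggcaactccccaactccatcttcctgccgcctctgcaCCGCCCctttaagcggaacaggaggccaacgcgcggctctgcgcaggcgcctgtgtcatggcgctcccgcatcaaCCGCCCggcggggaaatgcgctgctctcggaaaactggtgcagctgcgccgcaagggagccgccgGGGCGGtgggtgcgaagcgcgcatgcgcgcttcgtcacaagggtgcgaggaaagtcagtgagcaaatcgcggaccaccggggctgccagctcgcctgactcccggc
NT5E, which encodes the ectoenzyme CD73 (chr6:85449833-85450132, plus strand), had the highest level in SC01 and little RNA in SC07. ARFGEF3 (chr6:138161689-138161988, plus strand) was nearly silent in SC01, and FAM50B, a known imprinted gene (chr6:3849123-3849422, plus strand), had no count in SC10.
NT5E: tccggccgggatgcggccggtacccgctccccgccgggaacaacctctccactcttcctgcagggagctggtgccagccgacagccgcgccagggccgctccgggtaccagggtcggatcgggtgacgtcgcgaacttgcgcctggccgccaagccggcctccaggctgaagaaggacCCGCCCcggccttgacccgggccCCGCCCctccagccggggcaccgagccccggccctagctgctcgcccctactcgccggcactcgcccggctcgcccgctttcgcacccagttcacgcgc
ARFGEF3: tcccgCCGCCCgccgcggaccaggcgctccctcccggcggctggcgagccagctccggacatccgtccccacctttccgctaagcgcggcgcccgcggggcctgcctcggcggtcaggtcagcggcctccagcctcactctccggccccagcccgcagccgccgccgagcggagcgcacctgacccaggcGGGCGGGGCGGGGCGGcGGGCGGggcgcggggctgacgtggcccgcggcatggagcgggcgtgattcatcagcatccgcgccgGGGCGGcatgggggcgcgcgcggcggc
FAM50B: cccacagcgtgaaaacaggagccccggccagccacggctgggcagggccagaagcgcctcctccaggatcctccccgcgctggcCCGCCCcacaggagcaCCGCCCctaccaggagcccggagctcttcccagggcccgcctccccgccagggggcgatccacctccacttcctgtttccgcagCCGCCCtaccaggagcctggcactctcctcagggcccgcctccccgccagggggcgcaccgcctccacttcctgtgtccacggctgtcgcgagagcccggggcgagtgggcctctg
GGGCGG was found 1 time for MRS2, 1 time for ALDH5A1, 4 times for ACOT13, 2 times for NT5E, 6 times for ARFGEF3 and 3 times for FAM50B, counting overlapping matches. On either strand it occurred in 70.5% of the 570 member promoters and in 45% of all 35116 promoters in the RefSeq table. The median number of CG dinucleotides was 25 in member promoters and 14 in all promoters, and from 17 (MRS2) to 49 (ARFGEF3) in those printed. The AP-1 motif TGANTCA occurred in 4.91% of member and 7.71% of all promoters. Of the 6 printed here, ARFGEF3 alone held it. The E-box CACGTG occurred in 9.47% and 7.26%, and the TATA box TATAAA in 9.12% and 11.5%. Member promoters were those of expressed genes and the whole table was not, so these shares describe different kinds of genes.

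Across the chromosome, most members were lower in SC07 and in SC10 than in SC01, and SC07 and SC10 lay close to each other. The median log2 difference of the 705 members was -0.39 for SC07 minus SC01, or 1.31-fold lower, and -0.41 for SC10 minus SC01, or 1.32-fold lower. Genes off chromosome 6 with the same CPM minimum had medians of 0.02 in both. Of the members, 539 (76.5%) were below 0 in SC07 and 533 (75.6%) in SC10. Both comparisons use the same SC01 libraries. For SC10 minus SC07 the median was -0.02, with 369 members below 0, against -0.01 for genes off the chromosome. In bulk RNA, fewer cells that express a gene and less RNA per cell cannot be told apart.

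**Figure D1:**
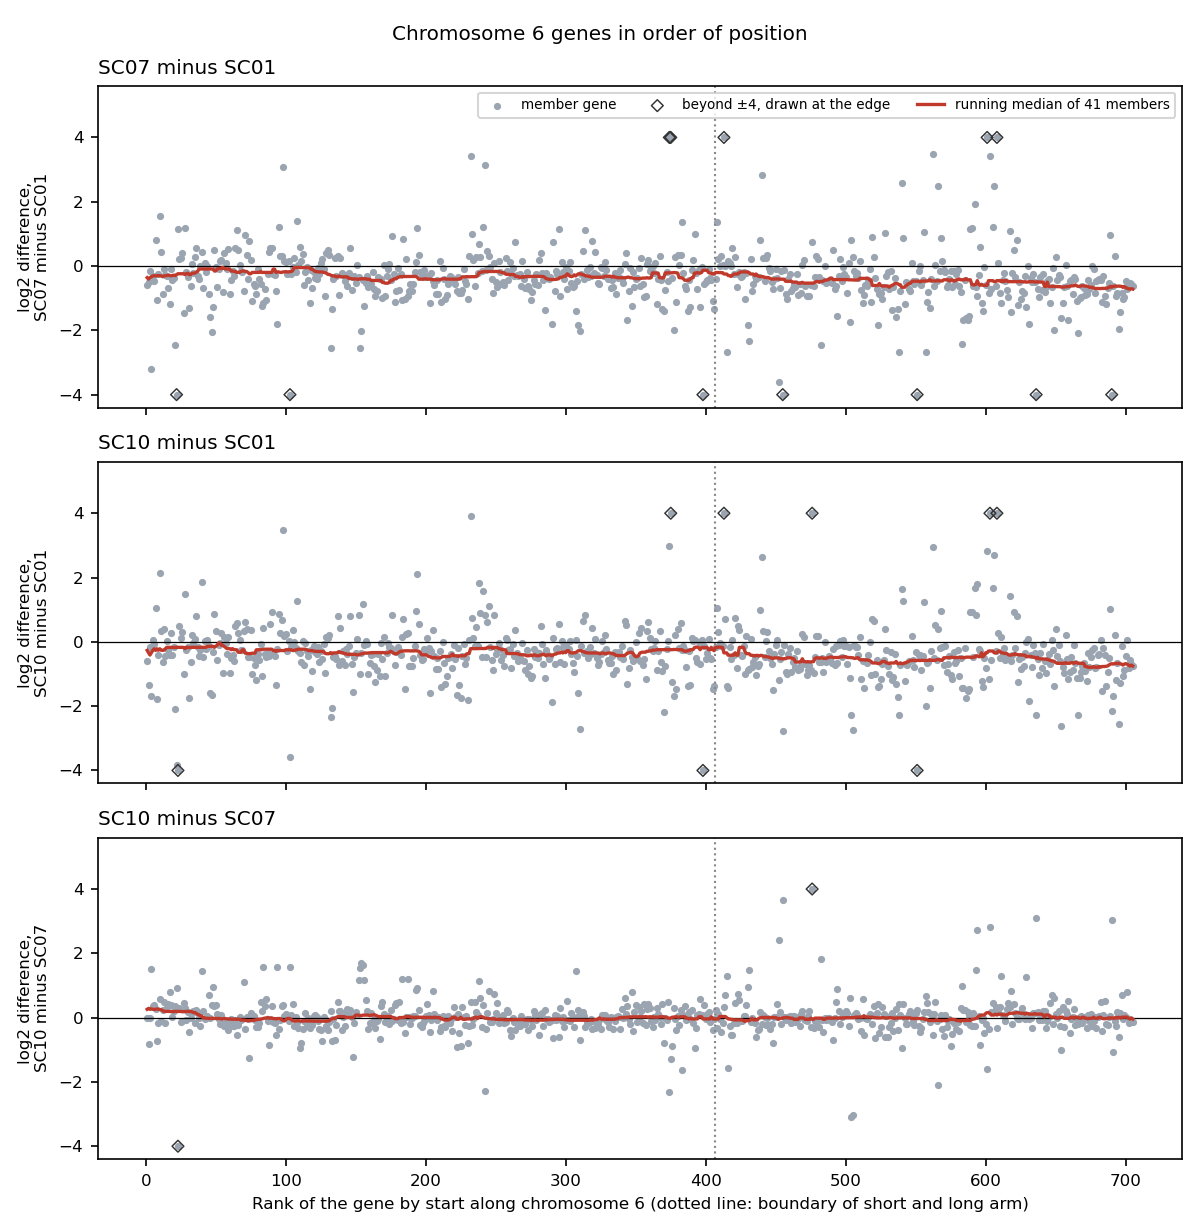
Log2 difference of each of the 705 members (grey points) in order of start, with the short arm left of the dotted line, for the 3 pairs of clones; diamonds are members beyond ±4 and the red line is the running median of 41 members. The running median lies below 0 along nearly the whole chromosome for both comparisons with SC01 and close to 0 for SC10 minus SC07.

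By edgeR's quasi-likelihood test with Benjamini-Hochberg adjustment over all 18009 genes tested, 461 members were lower and 113 higher in SC07 than in SC01 at an adjusted p below 0.05. Of all genes tested, 30.5% were lower and 31.5% higher by this rule. In SC10, 462 members were lower and 109 higher than in SC01, beside 32.4% and 33.5% of all genes tested. Between SC10 and SC07, 170 members were lower and 148 higher in SC10, beside 23% and 24.8% of all genes tested. Past 2-fold at the same threshold there were 99 lower and 33 higher members in SC07 against SC01 (8.68% and 9.15% of all genes tested). There were 107 and 31 in SC10 against SC01 (8.3% and 11.2%) and 13 and 28 in SC10 against SC07 (2.79% and 5.84%). Most of the members past the threshold against SC01 therefore differed by less than 2-fold.

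The spread of the members around their median, against SC01, was no wider than that of all other genes pooled. The interquartile range of the log2 differences was 0.68 on chromosome 6 and 0.69 off it for SC07 minus SC01, and 0.70 and 0.79 for SC10 minus SC01. For SC10 minus SC07 it was 0.37 and 0.47. The genes off chromosome 6 pool chromosomes with different medians, so their range is not that of 1 chromosome. Within single chromosomes the range ran from 0.54 (chromosome 16) to 0.76 (chromosome 8) for SC07 minus SC01. For SC10 minus SC01 it ran from 0.60 (chromosome 16) to 0.78 (chromosome 5). Among 22 autosomes and the X, chromosome 6 had the lowest median in both comparisons with SC01 and stood 14th from the lowest in SC10 minus SC07. Chromosome 22 came next for SC07 minus SC01, at -0.35, and chromosome 12 for SC10 minus SC01, at -0.33. Neither of these came next in both: chromosome 22 was at -0.10 in SC10 and chromosome 12 at -0.01 in SC07. Medians of similar size also lay above 0, so a shift of this size was not particular to chromosome 6. Chromosome 4 was at 0.40 in SC07 and 0.33 in SC10, and chromosome 8 at 0.30 and 0.46. Chromosome 2 was at 0.28 in both, and chromosome 18 at 0.32 and 0.33.

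**Figure D2:**
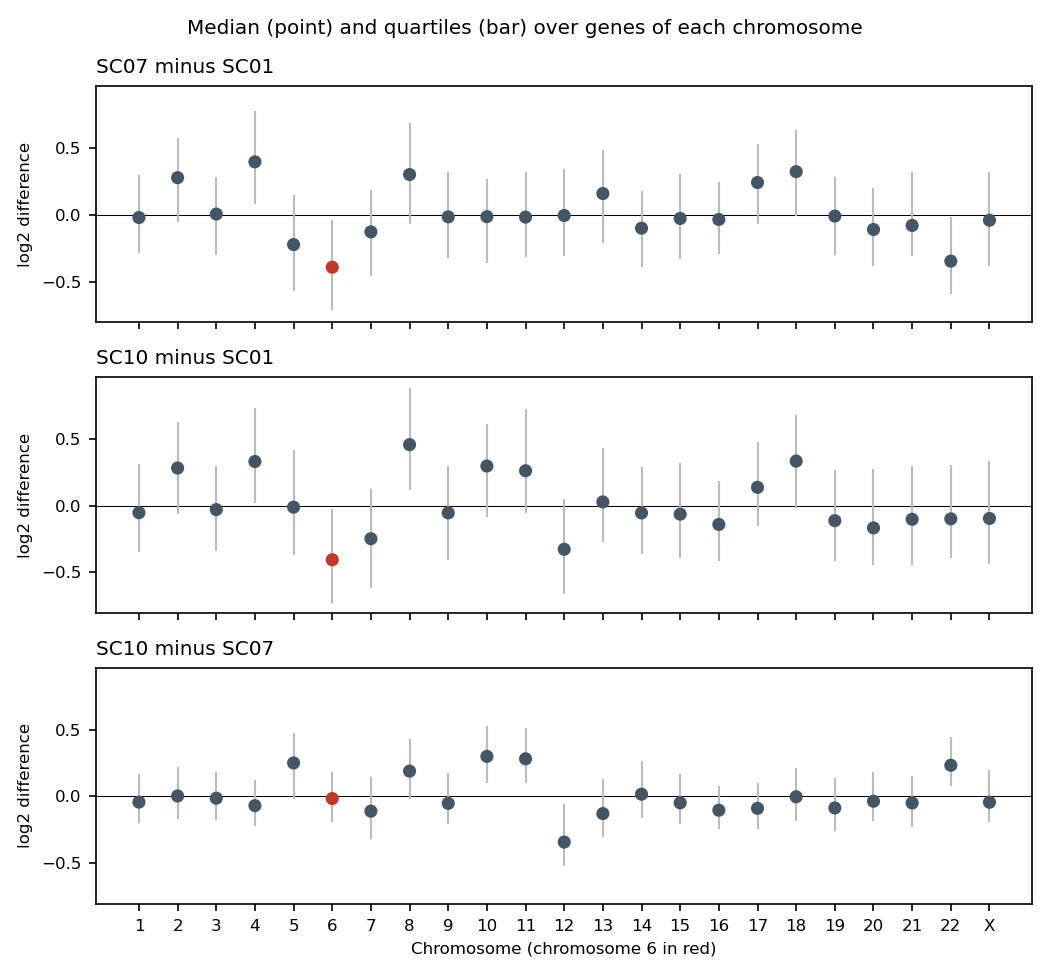
Median (point) and quartiles (bar) of the log2 difference over genes with at least 1 CPM in 3 libraries, for each chromosome and pair of clones; chromosome 6 is red. Its medians of -0.39 and -0.41 against SC01 are the lowest in the upper and middle panels, and its median of -0.02 lies among the others in the lower panel.

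The 3 libraries of a clone gave nearly the same values. Members held 4.90% to 4.91% of all counts in the SC01 libraries, 3.43% to 3.46% in SC07 and 3.47% to 3.53% in SC10. Short-arm members took 3.30% ± 0.00894 (SD, n = 3) of the counts in SC01, 2.47% ± 0.0149 in SC07 and 2.49% ± 0.0311 in SC10. Long-arm members took 1.6% ± 0.00768, 0.972% ± 0.0182 and 1.0% ± 0.00182. The ranges of SC01 did not overlap those of the other clones on either arm. Measured per library against the SC01 mean, as log2(CPM + 0.5), the median member stood between -0.36 and -0.35 in SC07 and between -0.39 and -0.38 in SC10. Without SC10 replicate 3, the library that lay apart, the median of SC10 minus SC01 was -0.41, and 566 members passed the threshold against 571 with it.

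**Figure D3:**
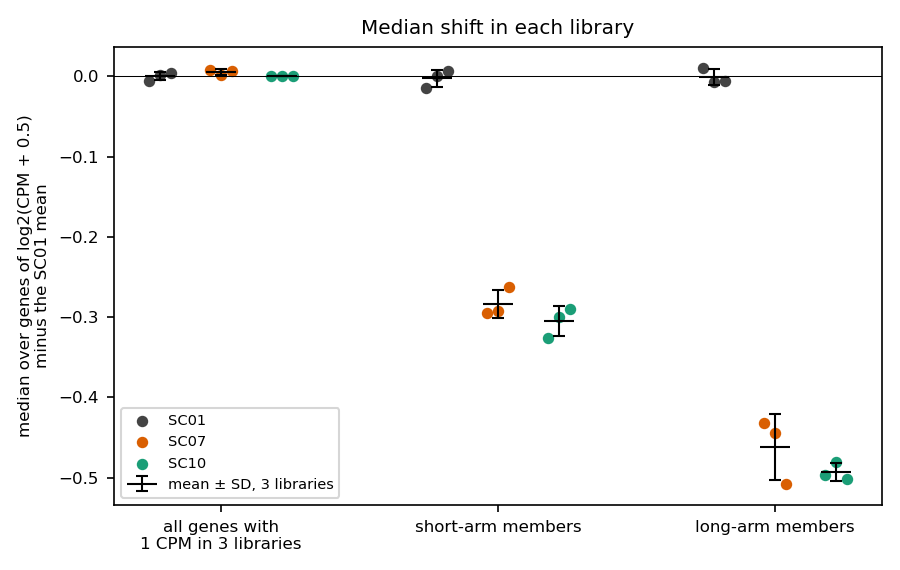
Median over genes of log2(CPM + 0.5) minus the SC01 mean in each library (points), with the mean and SD of the 3 libraries of a clone, for all genes with the CPM minimum and for short-arm and long-arm members. The long-arm values are between -0.51 and -0.43 in SC07 and between -0.50 and -0.48 in SC10, below all short-arm values, while the value over all genes stays within 0.01 of 0.

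The shift was larger on the long arm than on the short arm. The short-arm median was -0.31 in SC07 and -0.30 in SC10 against SC01, and the long-arm median -0.47 and -0.51. On the short arm 251 of 406 members were lower and 76 higher in SC07, and 251 and 69 in SC10. On the long arm 210 of 299 were lower and 37 higher in SC07, and 211 and 40 in SC10. Of all genes tested, 30.5% were lower and 31.5% higher in SC07, and 32.4% and 33.5% in SC10. For SC10 minus SC07 the medians were -0.03 and -0.01. Without the 159 members between 25 and 34 Mb, which hold the histone and MHC clusters, the short-arm medians were -0.30 and -0.31.

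In windows of 10 Mb, the largest shift lay near the end of the long arm. Between 160 and 170 Mb the median of 18 members was -0.89 in SC07 and -0.90 in SC10, and 16 of the 18 were lower in each clone. They included QKI, an RNA-binding splicing factor, with mean levels of 66.6, 29.4 and 25.6 CPM in SC01, SC07 and SC10, and PHF10, a subunit of a chromatin remodelling complex, with 60.2, 29.6 and 28.7 CPM. The exceptions in that window were MPC1, a subunit of the mitochondrial pyruvate carrier, and RNASET2, a lysosomal ribonuclease. MPC1 measured 10.7, 10.1 and 11.2 CPM in the SC01 libraries, 20.5, 20.5 and 21.2 in SC07 and 21.1, 19.6 and 23.5 in SC10. Its log2 difference was 0.96 ± 0.08 (SE) in SC07 and 1.01 ± 0.08 in SC10 (adjusted p = 1.89e-11 and 6.04e-12). These 4 genes were named after their values were seen.

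The 10 Mb window with the smallest median shift in both comparisons lay beside the centromere. Between 60 and 70 Mb, where only 9 members lie, the median was 0.03 in SC07 and -0.04 in SC10. Between 70 and 80 Mb it was -0.25 in SC07 and -0.43 in SC10, over 26 members. On the outer short arm it was -0.23 and -0.27 between 20 and 30 Mb, over 69 members, and -0.18 and -0.34 between 10 and 20 Mb, over 44 members. Between 0 and 10 Mb it was -0.27 in SC07 and -0.17 in SC10, over 45 members. There SC10 stood above SC07 with a median of 0.18, 16 members higher and 7 lower. Of all genes tested, 24.8% were higher and 23% lower in SC10 than in SC07. All 10 Mb windows with at least 10 members from there to 170 Mb had medians between -0.11 and 0.10. Members higher in SC10 than in SC07 in that first window, named after their values were seen, included GMDS, an enzyme of GDP-fucose synthesis (52.9 CPM in SC07 and 69.0 in SC10), NQO2, a quinone reductase (69.8 and 97.4), and TUBB2A, a beta-tubulin (43.8 and 59.0).

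No boundary along the chromosome was found by the rule used to divide it. The members, ordered by start, were divided into segments of constant median by least absolute deviations, with at least 20 members per segment and a penalty of 3 times the mean absolute deviation times the natural log of the number of members for each further segment. All 3 comparisons gave 1 segment, from DUSP22 to PDCD2. At a penalty of 1.5, 1 change point appeared in each comparison with SC01, both on the long arm. For SC07 it fell at MRAP2, with medians of -0.298 before and -0.549 after, and for SC10 at EEF1A1, with -0.293 and -0.546. SC10 minus SC07 had none at either penalty.

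The medians differed between transcript classes, some of them with few members, and between expression levels, and little between strands. The same classes and levels off chromosome 6 were not compared. Members on the plus strand had medians of -0.38 and -0.41 in SC07 and SC10, and members on the minus strand -0.40 and -0.40. Divided by mean CPM into 3 groups of 235, members had -0.48 and -0.50 in the lowest group, -0.36 and -0.38 in the middle and -0.32 and -0.37 in the highest. Protein-coding members had -0.37 and -0.40, and the 41 pseudogenes -0.40 and -0.35. The 18 antisense RNAs had -0.61 and -0.55. The 21 long intergenic noncoding RNAs had -0.87 in SC07 and -0.32 in SC10, with wide interquartile ranges of 1.01 and 1.11. Between SC10 and SC07, 8 of these 21 were higher and 1 lower in SC10, with a median of 0.32, beside 24.8% and 23% of all genes tested. An example is LINC00518, at 35.2, 14.6 and 28.1 CPM in SC01, SC07 and SC10, named after its values were seen.

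The most abundant members were housekeeping genes. EEF1A1, the elongation factor that brings aminoacyl-tRNA to the ribosome, took 8.86% of all member counts in SC01, 5.72% in SC07 and 5.75% in SC10. Its level was 3940, 4267 and 4214 CPM in the SC01 libraries, 2038, 1992 and 2017 in SC07 and 2062, 1976 and 2158 in SC10. All SC01 values lay above all others, and those of SC07 and SC10 overlapped. The log2 difference was -1.04 ± 0.04 (SE) in SC07 and -1.0 ± 0.04 in SC10 (adjusted p = 6.47e-18 and 1.38e-17). HSP90AB1, a cytosolic chaperone, fell by less: the means of SC01, SC07 and SC10 were 2618 ± 31.3, 1992 ± 23 and 2137 ± 76.6 CPM (SD, n = 3). TUBB, a beta-tubulin, had means of 1708, 1019 and 1433 CPM. EEF1A1, TUBB and the ribosomal protein genes have many near-identical copies elsewhere, so their counts depend on how reads with several matches were treated.

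Genes of the ribosome, of translation and of RNA processing were lower almost throughout. Of 27 members on this list, 23 were lower and 0 higher in SC07 than in SC01, and 23 lower and 2 higher in SC10. Their medians were -0.56 and -0.58, beside -0.01 over all genes tested in each comparison. For this list and those below, the shares of all genes tested against SC01 were 30.5% lower and 31.5% higher in SC07. In SC10 they were 32.4% and 33.5%. RPS12, a protein of the small ribosomal subunit on the long arm, measured 1092, 1076 and 1125 CPM in SC01, 345, 335 and 338 in SC07 and 362, 357 and 431 in SC10. It fell by 1.69 ± 0.06 in SC07 and by 1.52 ± 0.05 in SC10 on the log2 scale. RPS18, a short-arm ribosomal protein gene, fell by 0.85 and 0.89, and LSM2, part of the U6 snRNA-binding ring, by 0.87 and 0.85. TAF11, a subunit of the general factor TFIID, fell by 0.61 in SC07 and by 1.0 in SC10, and PNRC1, a nuclear receptor coactivator, by 0.91 and 0.89. The 2 that were higher in SC10 were GNL1 (log2 difference 0.16) and GTPBP2 (0.34), a GTPase linked to ribosome rescue.

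**Figure D4:**
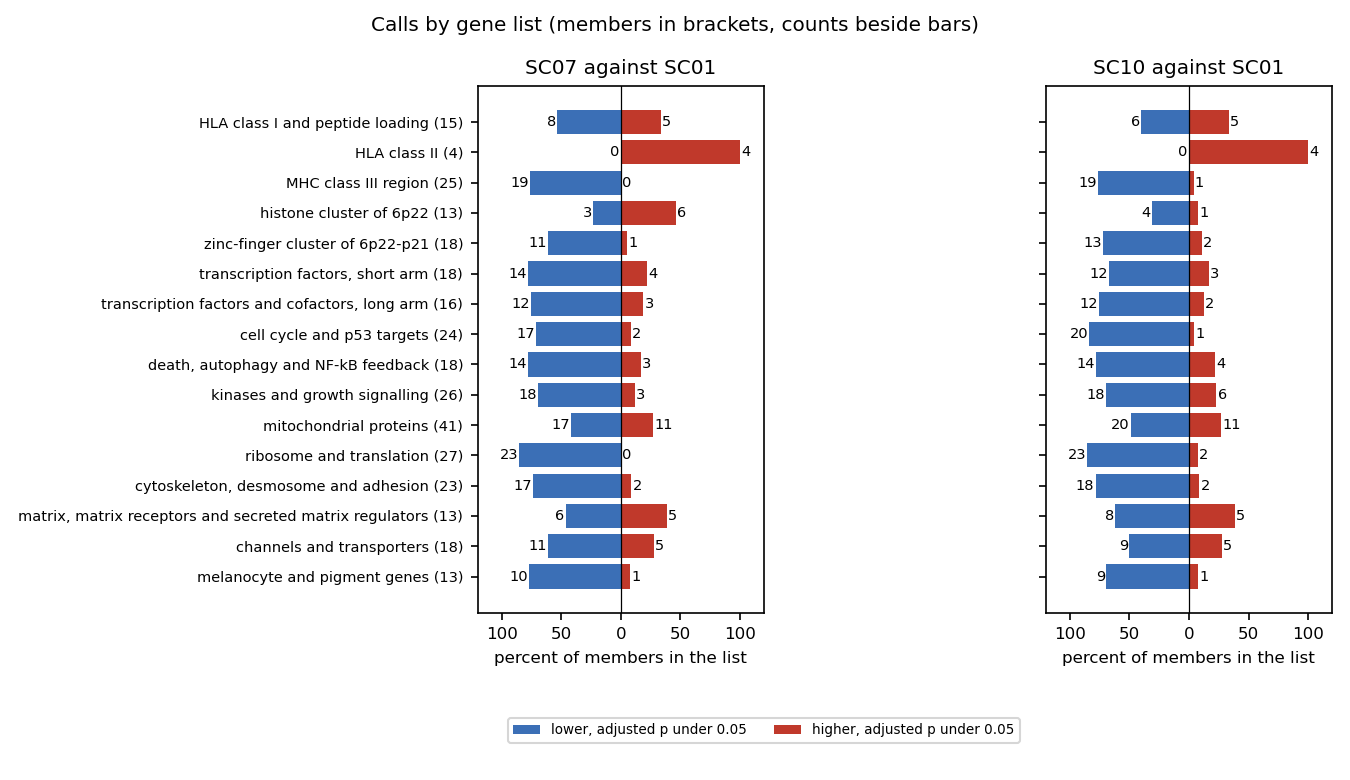
Percent of the members on each of 16 gene lists (number of members in brackets) that were lower (blue) or higher (red) than SC01 at an adjusted p below 0.05, with counts beside the bars. Lower calls outnumber higher ones on most lists, with HLA class II (0 lower, 4 higher in both) and, in SC07, the histone cluster (3 lower, 6 higher, but 5 and 5 with library totals) as the exceptions. Of all genes tested, 30.5% were lower and 31.5% higher in SC07, and 32.4% and 33.5% in SC10.

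The MHC had different medians in its regions. Its class III region, between class I and class II, holds complement, chaperone and housekeeping genes. Of 25 members, 19 were lower and 0 higher in SC07, and 19 lower and 1 higher in SC10, with medians of -0.40 and -0.42. Complement C2 measured 3.65, 4.52 and 3.8 CPM in SC01, 2.04, 2.35 and 1.46 in SC07 and 1.66, 1.6 and 1.54 in SC10. Its values in SC01 did not overlap the others, with log2 differences of -1.02 ± 0.17 and -1.31 ± 0.18. MSH5, a meiotic recombination protein, differed by -0.86 and -0.84. Exons of other genes cover 38.7% of the C2 and 47.3% of the MSH5 exon bases, so reads could have been split. The 1 member higher in SC10 was DDAH2, which had log2 differences of -0.47 in SC07 and 0.36 in SC10 (adjusted p = 0.000658 and 0.00422).

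Class I genes, which present peptides on the cell surface, and the peptide-loading genes went both ways. Of 15 members, 8 were lower and 5 higher in SC07, and 6 lower and 5 higher in SC10, with medians of -0.21 and -0.08. Of all genes tested, 30.5% were lower and 31.5% higher in SC07, and 32.4% and 33.5% in SC10. Calls in both directions were therefore not particular to class I. With library totals in place of TMM, 9 were lower and 2 higher in SC07 and 7 lower and 5 higher in SC10, with medians of -0.31 and -0.19. HLA-E, a ligand of natural killer cell receptors, measured 349, 357 and 356 CPM in SC01, 176, 172 and 181 in SC07 and 251, 236 and 254 in SC10. The 3 clones did not overlap, and HLA-E was 0.49 ± 0.04 higher in SC10 than in SC07. TAP2, a subunit of the peptide transporter, measured 41.9, 41.8 and 39.6 CPM in SC01, 83.3, 81.5 and 79.8 in SC07 and 73.2, 68.3 and 66.0 in SC10. TAP2 was therefore higher where HLA-E was lower, with log2 differences of 0.99 ± 0.05 and 0.75 ± 0.05. HLA-F was lower in SC07 (-0.33 ± 0.08) and higher in SC10 (0.82 ± 0.07) than in SC01. HLA-G measured 1.14 to 1.61 CPM in SC01, 0.335 to 0.799 in SC07 and 0.790 to 1.95 in SC10, with a log2 difference of -1.26 ± 0.34 in SC07 and -0.10 ± 0.31 in SC10. HLA-F-AS1, an RNA antisense to HLA-F, had means of 33.9, 5.75 and 16.9 CPM, it is not known whether counting used strand, and class I genes are near-identical to each other.

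Of 11 class II entries on chromosome 6, 4 were members, and all 4 were higher in SC07 and in SC10 than in SC01. Class II molecules present peptides to helper T cells, and melanoma cells can express them. The 4 members had median log2 differences of 0.94 and 1.71. HLA-DMA, which helps load peptides, measured 13.9, 15.9 and 13.4 CPM in SC01, 18.6, 17.6 and 16.2 in SC07 and 26.0, 25.3 and 29.1 in SC10. The clones did not overlap, with log2 differences of 0.28 ± 0.08 and 0.90 ± 0.08 against SC01. With library totals the first was 0.18 and no longer past the threshold. Its partner HLA-DMB rose by 0.68 ± 0.16 in SC07 and by 1.84 ± 0.15 in SC10, from a mean of 1.98 CPM. HLA-DPA1 rose by 1.20 and 1.59 from 1.10 CPM. HLA-DQB1 rose by 3.44 ± 0.33 and 3.91 ± 0.32 from 0.233 CPM, a total of 23 counts in SC01. It met the CPM minimum only outside SC01, so its direction was in part fixed by the rule for members. The 4 immune markers, PTPRC mainly, were also higher in SC07 and SC10, and their part in these differences was not tested.

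Between the class I and class III regions, the neighbours MICA, HCP5 and MICB stood above SC01 in both clones. MICA and MICB encode stress ligands of the receptor NKG2D, and HCP5 is a noncoding RNA. MICA measured 41.2, 43.0 and 43.4 CPM in SC01, 44.9, 45.9 and 48.3 in SC07 and 81.7, 82.0 and 86.5 in SC10. Its log2 difference was 0.12 ± 0.05 in SC07 (adjusted p = 0.0364) and 0.97 ± 0.05 in SC10 (7.56e-16). With library totals the first was 0.02 and not past the threshold. HCP5 had log2 differences of 1.18 ± 0.11 and 2.10 ± 0.10, and MICB of 0.34 ± 0.09 and 0.57 ± 0.08.

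Of 13 histone members of the short arm, 6 were lower and 0 higher in SC10 than in SC07, beside 23% and 24.8% of all genes tested. Most of their transcripts lack a poly(A) tail, and the deposited values do not say how RNA was selected. Of 66 histone entries in the cluster, 13 were members. In SC07, 3 were lower and 6 higher than in SC01, with a median of 0.16, and with library totals these counts were 5 and 5 and the median 0.05. SC10 had 4 lower and 1 higher, and its median was -0.27. HIST1H1C, a linker histone gene, measured 12.9, 16.1 and 14.5 CPM in SC01, 40.7, 35.6 and 38.4 in SC07 and 33.8, 32.2 and 39.5 in SC10. It was higher in both clones, by 1.40 ± 0.08 and 1.28 ± 0.08. HIST1H2AC, a core histone gene, had -0.63 ± 0.07 in SC10, and HIST1H2AG had -0.93 ± 0.16 and -0.96 ± 0.16. The difference of HIST1H2AC in SC07, 0.16 ± 0.07, fell below the threshold under several alternatives, including DESeq2 and library totals.

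The zinc-finger genes, most of them clustered beside the histones and all encoding presumed DNA-binding repressors or activators, were mainly lower. Of 18 members, 11 were lower and 1 higher in SC07, and 13 lower and 2 higher in SC10, with medians of -0.36 and -0.41. ZNF391 measured 6.07, 7.43 and 6.38 CPM in SC01, 3.23, 2.65 and 2.03 in SC07 and 1.74, 1.54 and 1.48 in SC10. The 3 clones did not overlap. ZSCAN23 had log2 differences of -0.34 ± 0.16 in SC07, not past the threshold, and -1.56 ± 0.18 in SC10. ZNF165, at under 2 CPM in each library, had 0.33 ± 0.28 and 0.81 ± 0.26.

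Among transcription factors of the short arm, 14 of 18 members were lower and 4 higher in SC07, and 12 lower and 3 higher in SC10. TFAP2A, an AP-2 factor that acts with MITF in melanocytes, measured 353, 352 and 340 CPM in SC01, 115, 116 and 117 in SC07 and 118, 115 and 111 in SC10. It fell 3.01-fold in SC07 and 3.03-fold in SC10 (adjusted p = 2.77e-22 and 2.94e-22), and those 2 clones overlapped. IRF4, a regulator of pigment genes, measured 116, 111 and 111 CPM in SC01, 81.3, 76.4 and 79.3 in SC07 and 43.0, 46.8 and 44.0 in SC10. Its clones stepped down without overlap, with -0.51 ± 0.05 in SC07 and -1.34 ± 0.05 in SC10. SOX4 had the same order, with means of 75.9, 44.4 and 30.2 CPM. FOXF2, a forkhead factor, measured 20.8, 21 and 20.3 CPM in SC01, 2.62, 1.80 and 2.42 in SC07 and 6.18, 6.47 and 6.73 in SC10. RREB1, a zinc-finger factor downstream of RAS, did not follow the chromosome, with means of 53.7, 64.9 and 57.4 CPM. Its log2 difference was 0.27 ± 0.10 in SC07 (adjusted p = 0.0357), lost under several alternatives, and 0.10 ± 0.10 in SC10 (0.427).

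Transcription factors and cofactors of the long arm gave 12 lower and 3 higher of 16 members in SC07, and 12 lower and 2 higher in SC10, with medians of -0.58 and -0.64. FOXO3, a forkhead factor of stress responses, measured 31.8, 29.5 and 30.1 CPM in SC01, 17.9, 18.9 and 17.8 in SC07 and 13.4, 15.2 and 12.6 in SC10. ESR1, the estrogen receptor, fell by 1.63 ± 0.25 and 2.63 ± 0.28 from 2.45 CPM. POU3F2, a factor of neural crest and melanoma cells, measured 47.0, 47.3 and 45.5 CPM in SC01, 8.34, 8.04 and 9.25 in SC07 and 30.4, 31.1 and 28.4 in SC10. Its clones did not overlap, and it was 1.81 ± 0.07 higher in SC10 than in SC07. EYA4, a phosphatase and cofactor, went the other way, with means of 59.0, 132 and 113 CPM and log2 differences of 1.17 ± 0.06 and 0.93 ± 0.06. MYB measured 1.96 to 2.51 CPM in SC01, 2.96 to 3.71 in SC07 and 1.54 to 2.13 in SC10. Its log2 difference was 0.58 ± 0.17 in SC07 (adjusted p = 0.00437) and -0.29 ± 0.18 in SC10 (0.172). PRDM1, a repressor of differentiation programs, was not a member, with 30 counts in all and at most 0.284 CPM.

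Cell cycle genes and targets of p53 were lower in the main: 17 of 24 members were lower and 2 higher in SC07, and 20 lower and 1 higher in SC10. With library totals, 20 were lower and 0 higher in SC07. CDKN1A, the p53 target p21 that inhibits cyclin-dependent kinases, measured 379, 383 and 390 CPM in SC01, 111, 102 and 117 in SC07 and 104, 103 and 107 in SC10. It was 3.48-fold and 3.66-fold lower, and SC07 and SC10 overlapped. SESN1, another p53 target that restrains mTORC1, fell by 0.91 ± 0.07 and 1.45 ± 0.07, and CDK19, a kinase of the Mediator complex, by 0.88 ± 0.08 and 1.37 ± 0.08. CCND3, cyclin D3, had -0.03 ± 0.05 in SC07 (adjusted p = 0.651) and -0.39 ± 0.05 in SC10. STX11, a syntaxin on the same list, had -1.26 ± 0.23 in SC07 and -0.00 ± 0.20 in SC10.

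On the list of death, autophagy and NF-kB genes, 14 of 18 members were lower and 3 higher in SC07, and 14 lower and 4 higher in SC10. TNFAIP3, encoding the NF-kB inhibitor A20, ran against most members of the long arm. It measured 32.1, 36.5 and 33.8 CPM in SC01, 191, 190 and 199 in SC07 and 228, 225 and 208 in SC10. It was 5.67-fold and 6.45-fold higher than in SC01 (adjusted p = 1.22e-24 and 3.30e-25). In its 10 Mb window, from 130 to 140 Mb, 27 of 40 members were lower and 10 higher in SC07, and 26 and 13 in SC10. That window held 9 of the 17 long-arm members higher past 2-fold in SC07, and 8 of 17 in SC10. Of all genes tested, 9.15% and 11.2% were higher past 2-fold. SERPINB1, a protease inhibitor near the end of the short arm, rose 2.96-fold and 4.43-fold, from a mean of 6.48 CPM to 19.2 and 28.7. TNFRSF21, death receptor 6, fell 3.98-fold and 3.22-fold from a mean of 152 CPM. IER3, an early response gene, measured 70.2, 70.4 and 66.0 CPM in SC01, 32.2, 34 and 33.4 in SC07 and 75.7, 74.2 and 79.5 in SC10. It was lower in SC07 alone, and its difference of 0.15 ± 0.05 in SC10 (adjusted p = 0.00794) fell to 0.04 with library totals, not past the threshold.

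Kinases and growth signalling genes gave 18 lower and 3 higher of 26 members in SC07, and 18 lower and 6 higher in SC10. RPS6KA2, the ribosomal S6 kinase RSK3, measured 22, 22.4 and 20.5 CPM in SC01, 0.457, 0.747 and 0.537 in SC07 and 5.23, 4.60 and 4.61 in SC10. The clones stood apart, with log2 differences of -5.19 ± 0.14 and -2.16 ± 0.10. EPHA7, an ephrin receptor, was read almost entirely in SC10. It had 5 counts in all 3 SC01 libraries, 9 in SC07 and 2886 in SC10, where it measured 29.6, 26.8 and 26.5 CPM. The 15 members of its 10 Mb window had a median of -0.49 in SC10. EPHA7 met the CPM minimum only in SC10, so its direction there was in part fixed by the rule for members. FRK, a kinase of the SRC family, rose by 2.58 ± 0.19 and 1.63 ± 0.20 from 0.721 CPM. CTGF, a matrix-associated growth regulator, fell by 2.42 ± 0.15 and 1.43 ± 0.14 from 7.16 CPM. VEGFA, the angiogenic growth factor, had -0.00 ± 0.05 in SC07 and -0.28 ± 0.05 in SC10. IGF2R, the receptor that clears IGF2, had -0.42 ± 0.05 in SC07 and 0.06 ± 0.05 in SC10, and was 0.48 ± 0.05 higher in SC10 than in SC07.

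Nuclear genes for mitochondrial proteins were among the least shifted. Of 41 members on this list, which also took in the tubulin acetyltransferase gene ATAT1 and the lysosomal gene OSTM1, 17 were lower and 11 higher in SC07, and 20 lower and 11 higher in SC10. The medians were -0.10 and -0.15. With library totals, 22 were lower and 8 higher in SC07, and 26 lower and 9 higher in SC10, with medians of -0.20 and -0.26. MTHFD1L, of mitochondrial folate metabolism, measured 97.4, 103 and 96.7 CPM in SC01, 24.5, 25.5 and 24.1 in SC07 and 38.7, 37.5 and 38.0 in SC10, which was 4.01-fold and 2.60-fold lower. NT5DC1 measured 31.1, 31.3 and 31.0 CPM in SC01, 58.0, 56.5 and 55.1 in SC07 and 74.9, 76.2 and 74.9 in SC10, and so rose in both clones. SOD2, the mitochondrial superoxide dismutase, had -0.10 ± 0.05 in SC07 (adjusted p = 0.0694) and -0.21 ± 0.05 in SC10. ACAT2, a thiolase on the same list whose product is cytosolic, fell by 0.47 ± 0.07 and 0.79 ± 0.07, with 52.3% of its exon length covered by other genes.

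Cytoskeletal and adhesion genes gave 17 lower and 2 higher of 23 members in SC07, and 18 lower and 2 higher in SC10. MARCKS, an actin-binding substrate of protein kinase C, measured 83.1, 83.1 and 83.2 CPM in SC01, 13.2, 12.6 and 13.2 in SC07 and 16.9, 18.6 and 16.5 in SC10. It was 6.40-fold and 4.80-fold lower. RIPOR2 measured 24.4, 27.6 and 25.1 CPM in SC01, 0.913, 0.464 and 0.806 in SC07 and 2.04, 2.05 and 2.36 in SC10. KIF13A, a kinesin that moves melanosome cargo, fell by 1.25 ± 0.05 and 1.05 ± 0.05 from 145 CPM. Of 13 melanocyte and pigment genes, which include IRF4 and TFAP2A again, 10 were lower and 1 higher in SC07, and 9 lower and 1 higher in SC10. The summed CPM of the 7 melanocyte markers, which lie on other chromosomes, ran the other way, as given above. TYRP1 among them was lower in SC07 and SC10 than in SC01, and SOX10 had 0 counts.

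Matrix genes, transporters and channels included members with large differences in either direction. Of 13 matrix genes, 6 were lower and 5 higher in SC07, and 8 lower and 5 higher in SC10. COL11A2, a fibrillar collagen chain, measured 3.63, 3.79 and 4.43 CPM in SC01, 34.8, 35.3 and 33.6 in SC07 and 6.62, 8.13 and 6.53 in SC10. The 3 clones did not overlap, and it was 4.88-fold lower in SC10 than in SC07. The neighbours ENPP4 and ENPP5, ectonucleotide pyrophosphatase family members, and ADGRB3, an adhesion receptor, had 18, 4 and 5 counts in all SC01 libraries. In SC07 they had 750, 472 and 227 counts, and in SC10 149, 191 and 281. Standard errors of log2 differences that start from so few counts are too small. ENPP4, ENPP5 and ADGRB3 met the CPM minimum only outside SC01, so their direction was in part fixed by the rule for members. Of 18 channels and transporters, 11 were lower and 5 higher in SC07, and 9 lower and 5 higher in SC10. SLC35F1 measured 9.70, 10.1 and 9.40 CPM in SC01 and at most 0.129 in SC07 and 0.267 in SC10, with 986, 11 and 13 counts. SLC35F1 met the CPM minimum only in SC01, with the same limit. SLC18B1, a vesicular polyamine transporter, fell by 1.62 ± 0.05 and 1.76 ± 0.05 from 105 CPM.

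The widest differences of the whole chromosome lay on both arms and in both directions. NT5E measured 192, 179 and 181 CPM in SC01, 2.25, 1.88 and 2.24 in SC07 and 27.6, 27.1 and 25.7 in SC10. It was 87.0-fold lower in SC07 (log2 difference -6.44 ± 0.07, adjusted p = 1.87e-30) and 6.87-fold lower in SC10, and its 3 clones were far apart. SAMD5 had log2 differences of -5.36 ± 0.21 and -2.28 ± 0.15, and MLIP, expressed mainly in muscle, of -5.09 ± 0.15 and -5.02 ± 0.15. In the other direction ARFGEF3 measured 0.824, 0.695 and 0.689 CPM in SC01, 24.1, 25.3 and 25.8 in SC07 and 21.5, 20.8 and 17.3 in SC10. It was 33.8-fold and 26.7-fold higher. ARFGEF3 met the CPM minimum only outside SC01, so its direction was in part fixed by the rule for members. MAP7, a microtubule-binding protein, measured 3.71, 2.56 and 2.99 CPM in SC01, 64.7, 68.4 and 69.1 in SC07 and 25, 21.8 and 19.4 in SC10. SCML4, of the Polycomb group, was low in SC10 alone, with means of 9.08, 11.0 and 1.34 CPM. TPD52L1 was high in SC07, with means of 5.24, 29.2 and 6.88 CPM.

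**Figure D5:**
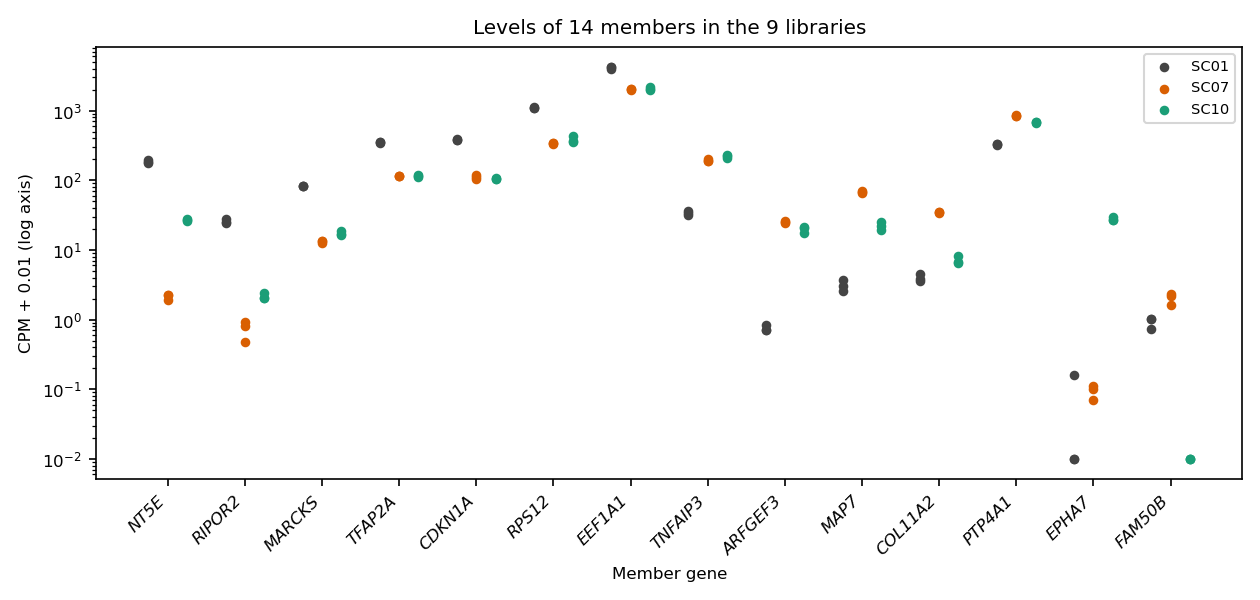
Level of 14 members in each of the 9 libraries as CPM + 0.01 on a log axis, coloured by clone. NT5E, RIPOR2, MARCKS, TFAP2A, CDKN1A, RPS12 and EEF1A1 are highest in SC01, TNFAIP3, ARFGEF3, MAP7, COL11A2 and PTP4A1 are lowest there, EPHA7 is high in SC10 alone and FAM50B is at 0 counts in SC10.

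FAM50B was read in SC01 and SC07 and not in SC10. It measured 0.714, 1.01 and 1.02 CPM in SC01 and 2.28, 2.17 and 1.61 in SC07, with 92 and 213 counts, and had 0 counts in each SC10 library. Set against a floor of 3 counts over the 3 SC10 libraries, it was at least 34.1-fold lower in SC10 than in SC01 and at least 70.6-fold lower than in SC07. NHEG1, a noncoding RNA of the long arm, had 3 counts in SC01, 37 in SC07 and 260 in SC10. The ratios to SC01 were 11.1 (95% interval 3.50 to 56.0) and 78.1 (26.4 to 381), and these intervals and floors cover counting error only. Both genes were named after their values were seen. FAM50B met the CPM minimum only outside SC10 and NHEG1 only outside SC01, so their direction was in part fixed by the rule for members.

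Members that went against the chromosome were those past the threshold, with libraries that did not overlap, and higher than SC01. There were 112 of them (15.9%) in SC07 and 104 (14.8%) in SC10, where 30.7% and 32.3% of all genes tested were higher by the same rule. On the short arm they numbered 75 in SC07 and 66 in SC10, and on the long arm 37 and 38. Their median log2 difference was 0.57 and 0.73, and 33 and 31 of them passed 2-fold. With library totals, which lower every log2 difference from SC01 by about the same amount, they numbered 90 and 91. For SC10 minus SC07 none was defined, because the median lay within 0.2 of 0. Members against the chromosome that lay below 1 CPM in every SC01 library were members only through SC07 or SC10. Their direction was in part fixed by the rule for members. PTP4A1, a phosphatase near the centromere, was an abundant one, named after its values were seen. It measured 332, 324 and 326 CPM in SC01, 847, 857 and 825 in SC07 and 684, 689 and 662 in SC10. It was 2.57-fold and 2.07-fold higher, with 79.0% of its exon bases shared with another gene.

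The longest row of neighbours against the chromosome had 6 members in both comparisons, from DCDC2 to ACOT13, with starts between 24.17 and 24.67 Mb on the short arm. By contrast, rows of up to 27 neighbours in SC07 (ADAT2 to MTHFD1L) and 24 in SC10 (RGS17 to MRPL18) were all below SC01 in sign, both on the long arm. In the row of 6, DCDC2, a microtubule-binding protein, measured 4.67, 4.27 and 4.31 CPM in SC01, 9.56, 11.5 and 9.91 in SC07 and 9.05, 7.98 and 7.24 in SC10. KIAA0319, a neuronal membrane protein, measured 0.549, 0.442 and 0.299 CPM in SC01, 3.71, 3.27 and 4.06 in SC07 and 5.26, 4.06 and 5.26 in SC10, or 8.42-fold and 11.1-fold higher. KIAA0319 met the CPM minimum only outside SC01, so its direction was in part fixed by the rule for members. The other 4, MRS2, ALDH5A1, TDP2 and ACOT13, moved less. MRS2 had log2 differences of 0.33 ± 0.05 and 0.26 ± 0.05, and ALDH5A1 of 0.33 ± 0.09 and 0.68 ± 0.09. TDP2 had 0.16 ± 0.05 and 0.20 ± 0.05, and ACOT13, whose promoter window overlaps that of TDP2, had 0.11 ± 0.05 and 0.24 ± 0.05. The ACOT13 difference in SC07 was barely past the threshold (adjusted p = 0.0496) and was lost under each of the 4 other scalings, with an adjusted p in the same edgeR test of 0.0509 with DESeq2 size factors, 0.0973 with TMM without chromosome 6 genes, 0.125 with upper quartile scaling and 0.935 with library totals. With library totals TDP2 had 0.05 and 0.09 and ACOT13 0.01 in SC07, none of them past it.

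A second row on the short arm, TBC1D7, GFOD1 and SIRT5, was higher in both clones and kept its calls with library totals. TBC1D7, a subunit of the TSC complex that restrains mTORC1, was the fifth most abundant member, at 1.20% of member counts in SC01, 2.36% in SC07 and 2.17% in SC10. It measured 552, 561 and 568 CPM in SC01, 852, 824 and 818 in SC07 and 754, 744 and 848 in SC10. The SC01 values lay below all others. GFOD1 had log2 differences of 1.13 ± 0.08 and 0.58 ± 0.08, and SIRT5, a mitochondrial deacylase, of 0.50 ± 0.06 and 0.28 ± 0.06. Further rows of 3 were seen in 1 comparison each: RNF144B, ID4 and MBOAT1, and 2 rows within the histone cluster, in SC07, and RNF182, CD83 and JARID2, and SLC2A12, SGK1 and AL078590.3, in SC10. Whether these rows differ between the clones was not tested. The members of all rows were chosen by their values.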

How the data were processed

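The 9 RNA-seq libraries (3 from each of the 3 untreated SK-MEL-5 clones) were grouped with clone and replicate number taken from the labels. The authors deposited 1 table of raw counts for 60675 Ensembl genes. HISAT2, featureCounts and GRCh38 are named in the submitters' processing notes. Neither the annotation release, nor the use of strand, nor the handling of multiply matching reads is given in the sources used here, which matters for overlapping genes, antisense genes and near-identical copies. Positions and names were taken from GENCODE 29, which held 57055 of the IDs. Of the other 3620, 61 reached 1 CPM in 3 libraries and could not be placed on a chromosome. Table columns without a sample numbered 0.

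Counts were filtered with filterByExpr (18009 genes), scaled by TMM and tested by the robust quasi-likelihood method of edgeR 4.0.16 (R 4.3.3) on all 9 libraries, with Benjamini-Hochberg adjustment over all genes tested and a threshold of 0.05. The steps were tested on simulated counts. Membership used CPM on library totals, and the CPM printed are scaled by TMM. Each standard error was computed from the log2 difference and its F statistic, and is too small where a clone has only a few counts. The total count per library, 30224066 to 39454087, sets the precision of low values. Lists are described by counts and medians, without a set test.

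The members, the gene lists and the tests were chosen with earlier results of these data known. Named genes, unless said otherwise, were the 5 members with the largest difference in each direction and comparison (adjusted p below 0.05, libraries not overlapping, at least 5 CPM in the higher clone), up to 6 against the chromosome, up to 4 per list, and a set of standing genes. Pseudogenes and symbols without a proper name were passed over. Alternatives were other scalings and filters, DESeq2 1.42.0, replicate number as a block, leaving out each library, other member sets and other settings of the division into segments.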

Additional observations from a re-analysis of the deposited data

How the results depend on the processing

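The medians of chromosome 6 and of its arms against SC01 stayed below 0 under every alternative run, and all counts of members past the threshold or against the chromosome stayed within 1.5 times. With library totals the median of all genes tested moved to -0.12 in both comparisons with SC01, and the chromosome, short-arm and long-arm medians were -0.4998, -0.4152 and -0.5784 in SC07 and -0.5171, -0.4143 and -0.6245 in SC10. Upper quartile scaling gave -0.4181 and -0.3332 (chromosome, short arm) in SC07 and -0.4316, -0.3283 and -0.5386 in SC10. TMM without chromosome 6 genes gave -0.4104 and -0.3258, and -0.4244, -0.3214 and -0.5312. A filter of 1 CPM in 3 libraries gave -0.4116 and -0.3268 in SC07, -0.4157 in SC10 and -0.0083 for SC10 minus SC07, and no filter gave -0.3825 and -0.3988. Members at 5 CPM had -0.3803, -0.4146 and -0.0266, protein-coding members -0.3664 in SC07 and -0.0269 between SC10 and SC07, with short-arm medians of -0.2696 in SC07 and -0.2872 in SC10, and members outside 25 to 34 Mb -0.4064 and -0.4250. Members with at most 20% exon overlap, an alternative chosen after seeing the data, had -0.3834 and -0.2642 (short arm) in SC07. A penalty of 1.5 gave 1 change point in SC07 and 1 in SC10. The smaller sets hold fewer members, and otherwise the cause of these moves was not tested.

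Leaving out 1 library gave chromosome medians of -0.4016 to -0.372 in SC07, -0.4088 to -0.3896 in SC10 and -0.0181 to -0.0009 between them, and short-arm medians of -0.3206 to -0.2839, -0.3219 to -0.2928 and -0.0253 to -0.0029.

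Deviations of same-numbered libraries of different clones had correlations of -0.018 to 0.064, and those of other pairs -0.075 to 0.063. The medians were 0.017 and -0.007. These values gave no sign of pairing by number, and whether same-numbered libraries shared a culture day or batch was not tested. With the replicate block, 583, 573 and 329 members passed the threshold, against 574, 571 and 318 without it. DESeq2 gave 563, 560 and 296.

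Of 3553 values of the 77 named members under alternatives, 43 lost and 13 gained a call and 9 changed sign, all of these without a call. TFAP2A between SC10 and SC07 was 0.0008 with the 1 CPM filter, 0.0005 without SC07 replicate 3 and 0.0258 without SC10 replicate 3 (range over left-out libraries -0.0222 to 0.0258). RREB1 in SC10 was -0.0144 and IGF2R in SC10 -0.0545 with library totals. VEGFA in SC07 was 0.0081 without a filter, between -0.0377 and 0.0185 over the fits that leave out 1 library, and 0.0098, 0.013 and 0.0185 without SC01 replicate 2, SC07 replicate 1 and SC07 replicate 2. Without SC10 replicate 3, RREB1 (0.23) and IGF2R (0.14) were past the threshold in SC10 against SC01. Without SC01 replicate 3, which held all SC01 counts of EPHA7, so did EPHA7 in SC07.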
